A study of Sus scrofa with 12 samples.

Results

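The comparison described here was between pigs with high and pigs with low aggressiveness, all of them with a high stress response. It used the 6 of 12 arrays of the series whose stress response label was high, 3 with the label for high and 3 with the label for low aggressiveness. All animals were adult German Landrace pigs, a commercial breed, and total RNA came from the liver, with 1 array per animal. Each group held 1 female and 2 males. The other 6 pigs of the series had a low stress response and were split by aggressiveness in the same way, 3 and 3. The series was about psychosocial groups of pigs, and the labels did not say how aggressiveness or stress response was scored, what the animals were exposed to, or whether any were littermates. Since no label said that the animals came from separate litters or pens, the p-values measure the spread between these animals.

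Each pig has a name made of its 2 labels and its replicate number, the stress response label first: high-low 3 stands for the third listed pig with high stress response whose aggressiveness was low. Replicate numbers only name the animals. High-high 3 and high-low 1 were the females.

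The liver answers a stressor through several routes. Cortisol enters hepatocytes and acts through the glucocorticoid receptor on genes of gluconeogenesis, amino acid breakdown and the stress response. Adrenaline and noradrenaline act through adrenergic receptors on the cell surface, which couple to G proteins and set glycogen breakdown. Both hormones also bear on immune genes, on lipid handling and on the daily clock of the liver. The question addressed here was which liver transcripts differed with aggressiveness among animals that already shared a high stress response.

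On each array a trimmed mean signal of 500.2 had been set before deposit, and the median signal of the 6 arrays lay between 96.1 and 114. Precision is limited by there being 3 arrays a group. The tissue label was checked with 15 hepatocyte markers, of which 13 were measured, and their summed signal was 457842 to 467748 in the high-aggressiveness and 407567 to 475473 in the low-aggressiveness pigs. Apolipoprotein A1 (APOA1) alone had a signal of 53268 or more in all 6 livers. Arrays of the 6 animals correlated with each other at 0.951 to 0.967 (Pearson's r of log2 signals across probe sets, which are not independent replicates). High-high 3 and high-low 3, 1 in each group, had the lowest median correlation with the other 11 arrays of the series, 0.9527 and 0.9567. Low-high 3 and low-low 3 came next at 0.9572 and 0.9583, so high-low 3 was close to arrays that were kept. Results are given with and without the 2 lowest arrays, called below the arrays that stood apart. The signals of EIF1AY, a gene of the Y chromosome, matched the sex label of every animal.

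Of 15999 probe sets tested, 2 passed a Benjamini-Hochberg adjusted p under 0.05 (0.0125%, limma), both lower at high aggressiveness. One was the probe set of PRKAG3, a regulatory subunit of the energy sensor AMP-activated protein kinase, and the other was 1 of 6 probe sets of ZNF281, a zinc finger transcription factor. An unadjusted p under 0.01 was reached by 108 probe sets (0.675%), 58 higher and 50 lower, where 160 were expected by chance, and one under 0.05 by 581 (3.63%; 1.7% higher and 1.93% lower) against 800. The signals of the groups did not overlap in 1206 probe sets (7.54%), 605 higher (3.78%) and 601 lower (3.76%). The median log2 fold change of all probe sets was 0.01, with 51% above and 49% below 0, and the percentiles 5 and 95 were -0.51 and 0.49. Fold changes are high against low aggressiveness on the scale of log2(signal + 16), which understates the change of dim probe sets, and errors of fold changes are standard errors (SE) from limma's moderated variance. Without the 2 arrays that stood apart none passed (smallest adjusted p = 0.177, limma) and 139 had an unadjusted p under 0.01. Without high-low 3 there were 168 at that threshold, 123 of them higher, and 1 passed.

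PRKAG3 encodes the gamma 3 subunit, which binds adenine nucleotides within the kinase and is best known from skeletal muscle. Its signals were 35.7, 33.7 and 23.6 in high-high 1 to 3 and 105, 158 and 98.3 in high-low 1 to 3. All 3 pigs with high aggressiveness lay below all 3 with low aggressiveness, with the lowest signal in the female high-high 3. The group mean was 30.99 ± 6.52 against 121 ± 32.7 (SD, n = 3 each), and the log2 fold change was -1.52 ± 0.18 (SE, limma adjusted p = 0.0480). In the 6 pigs with low stress response the signals were 128, 129 and 82.5 at high and 85.9, 117 and 105 at low aggressiveness, a log2 fold change of 0.11 ± 0.18 (SE). The 3 pigs with high stress response and high aggressiveness were thus the low ones of the 12, while the other 9 lay between 82.5 and 158. The difference between the fold changes at high and at low stress response was -1.63 ± 0.26 (SE, limma unadjusted p = 7.09e-05, adjusted p = 0.567). The fold change was -1.75 without both arrays that stood apart and -1.48 in males alone, and both settings ended the call (limma adjusted p = 0.177 and 0.854). Over 27 alternative settings the log2 fold change stayed between -1.92 and -0.95, and PRKAG3 passed in 3 of them. Of the 12 settings that left out 1 animal each, it passed without high-low 3 (limma adjusted p = 0.0302) and in no other.

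The ZNF281 probe set that passed was not the brightest of its gene, so it fell outside the rule for named genes and was taken up after its values were seen. Its signals were 29.4, 22.2 and 19.9 in high-high 1 to 3 and 106, 188 and 157 in high-low 1 to 3. The groups did not overlap, and the log2 fold change was -2.04 ± 0.20 (SE, limma adjusted p = 0.0180). At low stress response the log2 fold change was -0.11 ± 0.20 (SE), with group means of 112 ± 35.9 and 119 ± 16.8 (SD, n = 3 each). The other 5 probe sets of ZNF281 had signals from 112 to 1902 and gave log2 fold changes of 0.04 to 0.47. In all 5 the groups overlapped, so the probe sets of the gene disagreed. In both probe sets that passed, the signals at high aggressiveness lay under 40.58, the mean signal below which probe sets were left out, and the values used here hold no detection calls. The sizes therefore depended on the constant added before the log2: with 64 in place of 16 the log2 fold changes were -0.95 for PRKAG3 and -1.27 for ZNF281.

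**Figure D1:**
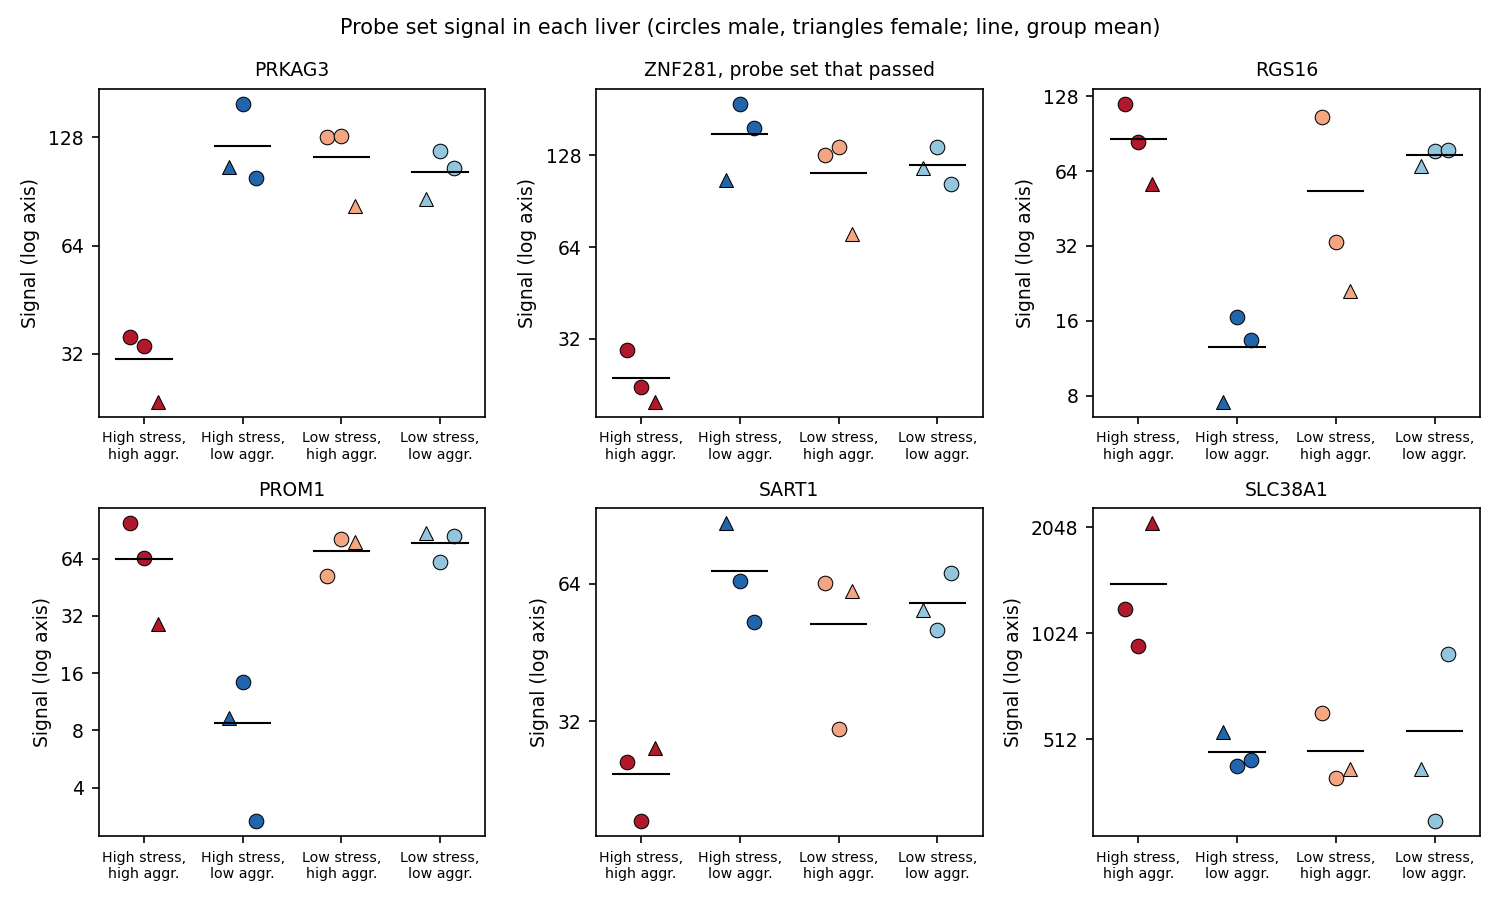
Signals of 6 probe sets (log2-scaled axis) in the 12 livers by group, with circles for males, triangles for females and a line at the group mean. PRKAG3 and the ZNF281 probe set were low in the 3 pigs with high stress response and high aggressiveness, where they were 23.6 to 35.7 and 19.9 to 29.4, and RGS16 and PROM1 were low in the 3 with high stress response and low aggressiveness.

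The 12 genes with the smallest p in each direction were named by rule, and because the rule used this comparison, their separation and the signs of their fold changes are descriptions. None of the 12 higher genes passed. RGS16 came first among them; it shortens signals of G protein coupled receptors by speeding GTP hydrolysis on the alpha subunits Gi and Gq, and in mouse its liver transcript follows feeding and the time of day. Its signals were 119, 83.4 and 56.96 in high-high 1 to 3 against 7.55, 16.6 and 13.4 in high-low 1 to 3. The log2 fold change was 1.81 ± 0.31 (SE, limma adjusted p = 0.655), and the lowest high-aggressiveness animal lay above the highest low-aggressiveness one. At low stress response the signals were 106, 33.1 and 21.2 at high and 66.98, 77.3 and 78.02 at low aggressiveness, a log2 fold change of -0.57 ± 0.31 (SE). The 3 pigs with high stress response and low aggressiveness were therefore the lowest of the 12. The difference between the fold changes was 2.38 ± 0.44 (SE, limma unadjusted p = 2.64e-04, adjusted p = 0.766). Without low-high 1, whose signal was high for its group, RGS16 passed at high stress response and for the interaction (limma adjusted p = 0.0283 and 0.0335).

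PROM1, prominin 1, a membrane protein of bile duct and progenitor cells, had signals of 98.4, 64.3 and 28.96 at high and 9.26, 14.4 and 2.67 at low aggressiveness. Its log2 fold change was 1.62 ± 0.33 (SE, limma adjusted p = 0.999), and at low stress response it was -0.12 ± 0.33 (SE), with all 6 animals there between 51.7 and 87.0. As with RGS16, the low group was the 3 pigs with high stress response and low aggressiveness. Of the 7 measured cholangiocyte markers, 4 were above 0 and 3 below, and 2 were higher and 2 lower without overlap, beside 7.54% of all probe sets. Beside PROM1 one further marker was higher without overlap and with an unadjusted p under 0.05: CLDN4, a claudin of tight junctions, had signals of 2953, 2888 and 3481 against 2492, 2019.6 and 2715 and a log2 fold change of 0.37 ± 0.16 (SE, limma adjusted p = 0.999). EPCAM, an adhesion molecule of epithelia, and SPP1, osteopontin, were lower without overlap, with log2 fold changes of -0.40 ± 0.29 and -0.80 ± 0.60 (SE), and neither had an unadjusted p under 0.05. KRT19, a keratin of bile ducts, had signals of 6.02, 71.1 and 13.01 against 12.2, 144 and 69.5, which overlapped. These 4 markers were taken up after their values were seen. The median of the 7 markers was 0.19, and -0.24 without both arrays that stood apart.

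SLC38A1 is a sodium-coupled carrier of glutamine and other neutral amino acids. Its signals were 1197, 941 and 2103 at high and 538, 429.7 and 446 at low aggressiveness, a log2 fold change of 1.48 ± 0.39 (SE). The female high-high 3 was the highest of all 12 animals, and without both arrays that stood apart the fold change was 1.07. Of its other 2 probe sets, one had a log2 fold change of 1.18 ± 0.39 (SE) with groups that did not overlap, and the other had 0.24 ± 0.29 (SE) with groups that did.

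Of the remaining higher genes, TGFA, a ligand of the epidermal growth factor receptor, had signals of 70.5, 69.9 and 96.7 against 39.2, 48.7 and 35.1, and ITGAV, the alpha V integrin, had 302, 324 and 369 against 156, 178 and 229. Their log2 fold changes were 0.73 ± 0.17 and 0.78 ± 0.21 (SE). GADD45B, an inducible stress sensor, had signals of 345, 373 and 439 against 266, 149 and 284, but its second probe set overlapped and had a log2 fold change of 0.05 ± 0.39 (SE). WAS, an actin regulator of blood cells, had log2 fold changes of 0.64 ± 0.17 (SE) among pigs with high and 0.66 ± 0.17 (SE) among pigs with low stress response, the most alike pair of values among the 12. CDS1, which makes CDP-diacylglycerol for phospholipids, SLC8B1, a mitochondrial sodium and calcium exchanger, FCHO1, of clathrin-mediated endocytosis, DCHS1, a protocadherin, and MYL4, a myosin light chain, had log2 fold changes of 0.95, 0.75, 1.05, 1.14 and 1.22. The range of the 12 was 0.64 to 1.81, and 0.53 to 1.84 without both arrays that stood apart.

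After PRKAG3 the lower genes began with SART1, a splicing factor of the spliceosome's tri-snRNP, whose signals were 26.1, 19.3 and 28 against 86.8, 64.7 and 52.6. ALG14, which takes part in the first steps of N-glycan synthesis, had signals of 224, 330.3 and 221 against 545, 562 and 452. Their log2 fold changes were -1.04 ± 0.23 and -0.98 ± 0.22 (SE, limma adjusted p = 0.999 for each). The high-aggressiveness signals of SART1 lay wholly under 40.58, and with a constant of 64 its log2 fold change was -0.57. With the 3' to 5' ratio of EF1A as a covariate the value of ALG14 was -0.23. SLC27A1, a fatty acid transport protein, had signals of 57.5, 37.5 and 37.1 against 92.3, 91.7 and 166, with the female high-high 3 and high-high 2 the lowest and high-low 3 the highest of the 6. Its log2 fold change was -1.12 ± 0.29 (SE), and -0.67 without both arrays that stood apart. PYCR1, which catalyses the last step of proline synthesis, had signals of 115, 130.3 and 295 against 314, 527 and 322: the female high-high 3 lay just under the lowest low-aggressiveness pig, and the 2 males far below.

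CCL21, a chemokine of lymphatic vessels and lymphoid tissue, had signals of 46.1, 119 and 117 against 241, 208 and 325. PRELP, a proteoglycan of the extracellular matrix, had signals of 556, 568 and 416 against 781, 883 and 993. PLAT, tissue plasminogen activator, had signals of 72.6, 50.2 and 24.3 against 96.9, 102 and 146. Their log2 fold changes were -1.38 ± 0.36, -0.78 ± 0.21 and -1.06 ± 0.29 (SE), and without both arrays that stood apart they were -1.29, -0.54 and -0.54. AQP1, a water channel of vessels and bile ducts, had signals of 591, 1050.1 and 907 against 1848, 1112 and 1595 and a log2 fold change of -0.83 ± 0.25 (SE), and its second probe set had -0.90 ± 0.46 (SE) with overlapping groups. NCK2, an adaptor between receptors and the actin skeleton, had a log2 fold change of -0.69 ± 0.17 (SE), but its second probe set had 0.45 ± 0.30 (SE). The list was completed by ABHD18 and LOC100515166, with log2 fold changes of -0.79 and -1.21. The range of the 12 was -1.52 to -0.69, and -1.75 to -0.54 without both arrays that stood apart.

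By the size of the fold among genes whose groups did not overlap, BSCL2 and PEBP4 joined RGS16, PROM1 and SLC38A1. BSCL2, seipin, which shapes lipid droplets, had signals of 132, 89.8 and 123 against 17.98, 20.6 and 25.9, and PEBP4 had 154, 192 and 142 against 60.9, 51.2 and 9.37. Their log2 fold changes were 1.79 ± 0.60 and 1.81 ± 0.61 (SE), and none of the 5 added by this rule passed. The second probe set of PEBP4 had a log2 fold change of 0.49 ± 0.62 (SE) with overlapping groups. CLEC18C, a C-type lectin, CDC20, which activates the anaphase-promoting complex, and NFKBIB, an inhibitor of NF-kappa B, joined PRKAG3 and CCL21 among the lower genes. NFKBIB had signals of 1573, 2652 and 2666 against 4907, 7039 and 4524 and a log2 fold change of -1.26 ± 0.47 (SE), while its second probe set had 0.33 ± 0.44 (SE). CLEC18C had signals of 15.8, 16.3 and 19.7 against 162, 258 and 48.4, and high-low 3 lay far below the other 2 of its group. The dimmer groups of BSCL2 and CLEC18C lay wholly under 40.58, and with a constant of 64 their log2 fold changes were 1.06 and -1.31. At low stress response BSCL2 had signals of 78.7, 118 and 16.4 at high and 125, 12.0 and 70.5 at low aggressiveness. CLEC18C there had 173, 50.7 and 308 against 166, 166 and 13.4. The other probe sets of BSCL2 were left out by the filter.

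The same contrast in the 6 pigs with low stress response gave 0 probe sets past the adjusted threshold (limma), 511 at an unadjusted p under 0.05 and 113 (0.706%) at one under 0.01. Whether aggressiveness went with other transcripts at high than at low stress response was tested by the interaction. Of 15999 probe sets 0 (0%) passed (limma, smallest adjusted p = 0.567), 619 (3.87%; 1.59% higher and 2.28% lower) had an unadjusted p under 0.05 and 104 (0.65%) under 0.01, fewer than the 800 and 160 expected. Without both arrays that stood apart 2 passed, OGDHL and ZNF687 (limma adjusted p = 0.0288 for each); ZNF687 was taken up after its values were seen. For 8 of the 12 higher genes the mean of the 6 pigs with low stress response was nearer to the high-aggressiveness group, as for RGS16 and PROM1, so that the 3 pigs with low aggressiveness were the group apart. For 10 of the 12 lower genes it was nearer to the low-aggressiveness group, as for PRKAG3, so that the 3 pigs with high aggressiveness were the group apart. In both cases the group apart had the lower signals. The filter on the mean over 12 arrays favours this among dim probe sets: one with 1 low group is kept more readily than one with 1 high group. Its part in the named genes, which were not all dim, was not tested. The share over all probe sets was not computed, so the pattern is a description of the named genes. At low stress response the groups overlapped in 11 of the 12 higher and 10 of the 12 lower genes, where 7.73% of all probe sets did not overlap, with log2 fold changes from -0.57 to 0.66 and from -0.22 to 0.74.

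**Figure D2:**
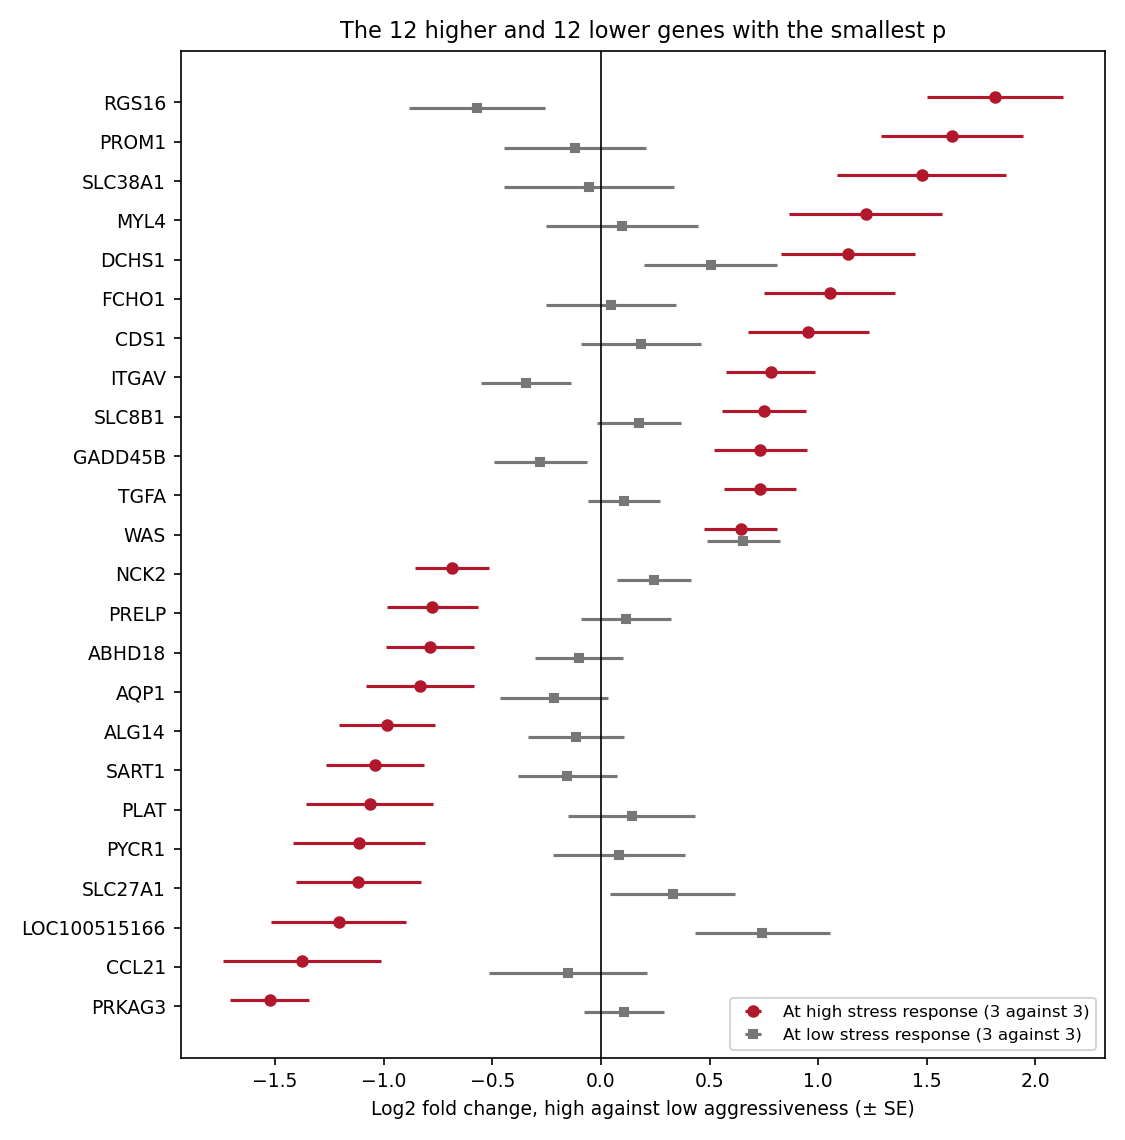
Log2 fold changes of high against low aggressiveness, with SE, of the 12 higher and 12 lower genes with the smallest p at high stress response (circles) and of the same genes at low stress response (squares). The genes were chosen by the circles, which run from -1.52 to 1.81, while the squares run from -0.57 to 0.74.

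The 6 genes with the smallest interaction p were PRKAG3, RGS16, OGDHL, GRK5, IGFBP6 and GNG3. All 6 had fold changes of opposite sign at the 2 levels of stress response. That of PRKAG3 at low stress response, 0.11 ± 0.18 (SE), was near 0. OGDHL, a relative of the 2-oxoglutarate dehydrogenase of the citric acid cycle, had signals of 1130.0, 1174 and 851 against 219, 198 and 921 at high stress response. High-low 3 lay with the high-aggressiveness pigs, so the groups overlapped, and the log2 fold change was 1.55 ± 0.48 (SE). At low stress response its signals were 216, 249 and 412 against 1015, 1367 and 1529, with -2.13 ± 0.48 (SE) as the log2 fold change, and its interaction was 3.68 ± 0.68 (SE, limma adjusted p = 0.766). Without high-low 3 the interaction was 4.37 and passed (limma adjusted p = 0.0199).

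GRK5, a kinase that switches off adrenergic and other G protein coupled receptors, had signals of 92.8, 69.3 and 105 against 179.8, 155 and 116 at high and 181, 171 and 166 against 113, 115 and 74.3 at low stress response. Its log2 fold changes were -0.66 ± 0.20 and 0.72 ± 0.20 (SE). IGFBP6, a binding protein of insulin-like growth factor 2, had log2 fold changes of -0.69 ± 0.32 and 1.34 ± 0.32, and GNG3, a G protein gamma subunit, -0.56 ± 0.29 and 1.30 ± 0.29 (SE). With all 12 arrays OGDHL, GRK5, IGFBP6 and GNG3 did not pass for the interaction or at high stress response.

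Turning to pathways, 34 lists of genes with a shared function or cell type were read by counts and medians; they held 579 measured genes, of which 0 passed (limma), 19 (3.28%) had an unadjusted p under 0.05 and 55 (9.50%) had groups that did not overlap. Of all probe sets 3.63% and 7.54% did so. The median was above 0 in 18 lists and below 0 in 16, and in 27 it lay within 0.1 of 0. In 13 lists it turned sign without both arrays that stood apart. Leaving out 1 animal moved the log2 fold changes of 29 of the 37 genes named below through their lists by over 1.5 times.

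**Figure D3:**
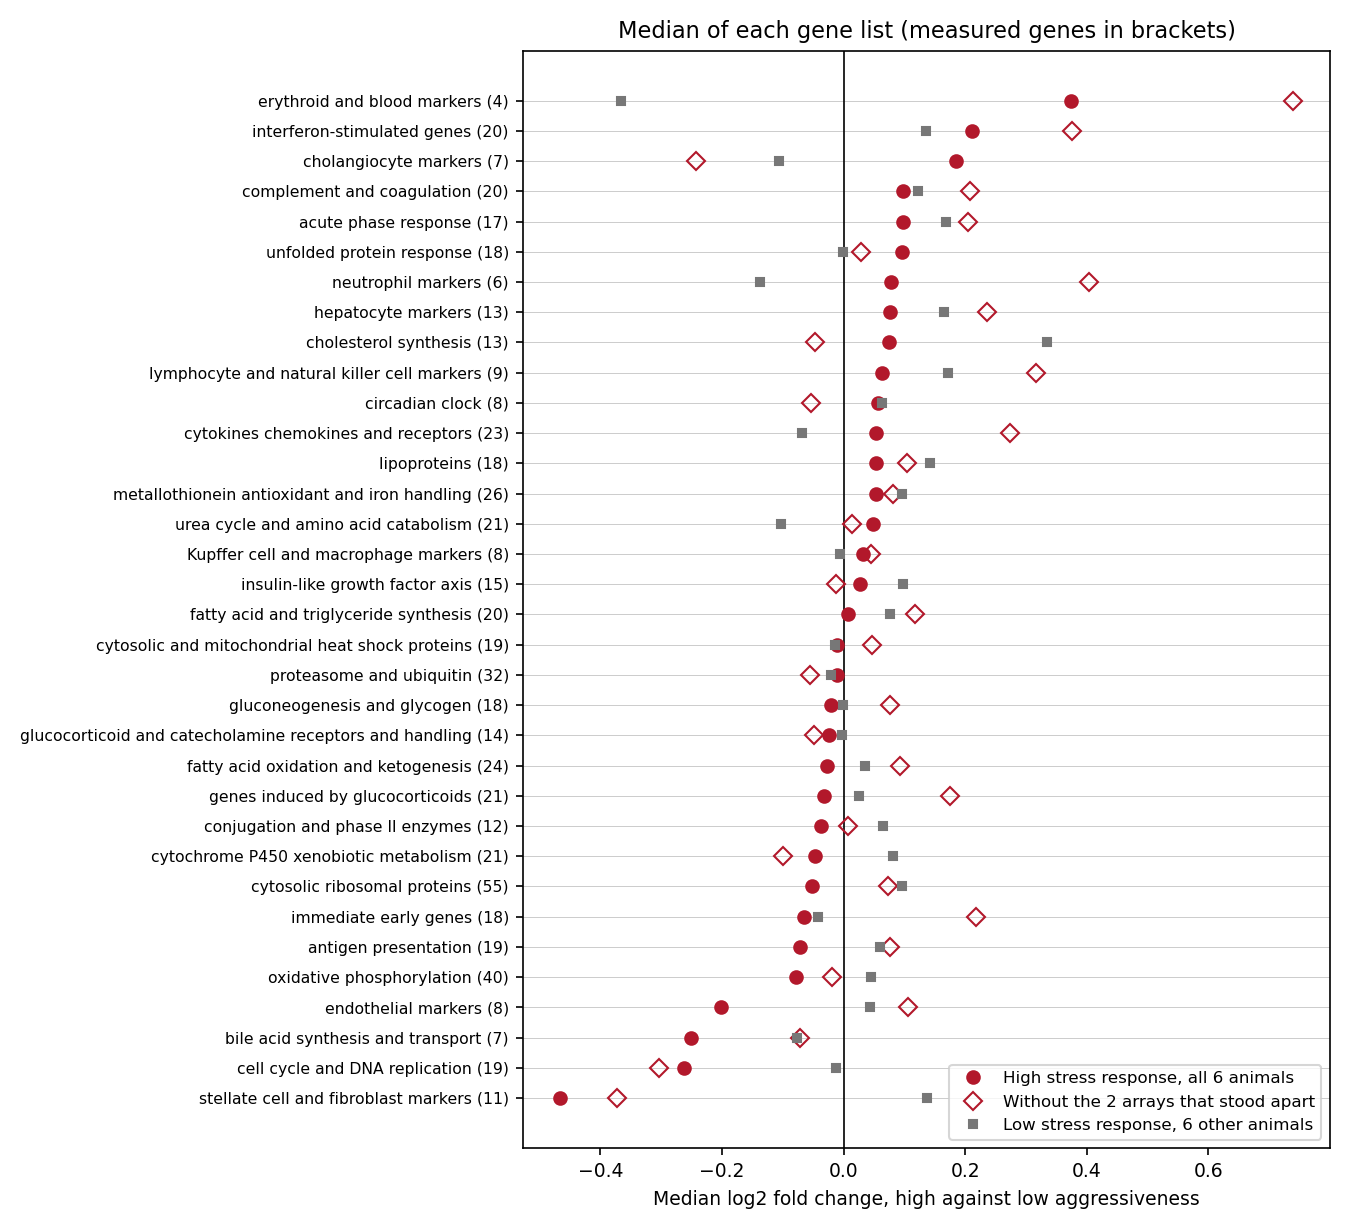
Median log2 fold change of high against low aggressiveness in each of 34 gene lists at high stress response (filled circles), without the 2 arrays that stood apart (diamonds) and at low stress response (squares), with the number of measured genes in brackets. Stellate cell and fibroblast markers were lowest at -0.47 and cell cycle genes next at -0.26, and 27 of the 34 filled circles lay within 0.1 of 0.

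Of 14 measured receptors and handling genes of glucocorticoids and catecholamines, 7 were above and 7 below 0, with a median of -0.02. GRK5, lower, and HSD11B2, higher, had an unadjusted p under 0.05 and no overlap, 2 of 14 beside 3.63% and 7.54% of all probe sets, and neither passed after adjustment. GRK5 was the lowest in p, followed by HSD11B2, which inactivates cortisol, and SERPINA6, which encodes the plasma carrier of cortisol. HSD11B2 had a log2 fold change of 0.39 ± 0.18 (SE) at high stress response. It was much the same at low stress response, 0.43 ± 0.18 (SE), where the groups did not overlap either. SERPINA6 had signals of 2412, 5080.4 and 1359 against 2318, 1346 and 1633, with high-high 2 far above the other 5 and the remaining animals mixed. The receptor gene NR3C1 had a log2 fold change of -0.34 ± 0.27 and HSD11B1, whose enzyme regenerates cortisol from cortisone, had -0.23 ± 0.19 (SE), with overlapping groups; both were taken up after their values were seen. Of 21 genes induced by glucocorticoids, 10 were above 0 and 11 below, with a median of -0.03. Besides GADD45B the smallest p were those of GADD45A, a stress sensor of the same family, and FKBP5, a co-chaperone of the receptor. GADD45A had signals of 943, 488 and 494 against 1017, 1042 and 1791 and FKBP5 162, 116 and 465 against 297, 372 and 807, with log2 fold changes of -1.001 ± 0.48 and -1.05 ± 0.54 (SE). In FKBP5 the highest pig of each group was an animal whose array stood apart, high-high 3 and high-low 3.

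Immediate early genes, switched on rapidly by stimuli without new protein synthesis, had 7 of 18 above 0 and a median of -0.06. EGR1, a zinc finger transcription factor, had signals of 721, 1130.0 and 697 against 2010.3, 914 and 3954 and a log2 fold change of -1.21 ± 0.54 (SE, limma adjusted p = 0.999). High-low 3 was the highest and high-low 2 overlapped with the high-aggressiveness pigs. FOSL2 had a log2 fold change of 0.65 ± 0.33 and KLF4 -0.35 ± 0.33 (SE), and FOSL2 had 0.14 in males alone and 0.22 without the female high-high 3. The median of the list was 0.22 without both arrays that stood apart and 0.25 without high-low 3. Of 8 clock genes 4 were above 0, with a median of 0.06. NFIL3, a repressor of clock output genes, had signals of 1804, 1656 and 1976 against 1540.3, 1527 and 1553, which did not overlap, and CRY2 and RORA had log2 fold changes of -0.46 ± 0.43 and 0.28 ± 0.32 (SE).

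Interferon-stimulated genes, the antiviral effectors that interferons switch on, had 16 of 20 above 0 at a median of 0.21, beside 51% of all probe sets above 0. No member had an unadjusted p under 0.05. GBP1, a guanylate-binding GTPase, was the single member of the 20 whose groups did not overlap, where 7.54% of all probe sets did not. It had signals of 469, 734 and 414 against 332, 292 and 346 and a log2 fold change of 0.67 ± 0.43 (SE). MX2 and IRF1 had log2 fold changes of 0.28 ± 0.20 and 0.28 ± 0.22 (SE). The mean log2 deviation of the list from its mean over the 12 arrays was 0.50, 0.15 and -0.17 in high-high 1 to 3 and 0.26, -0.21 and -0.09 in high-low 1 to 3, so the groups overlapped. At low stress response the median was 0.14, and with the 3' to 5' ratio of EF1A as a covariate it was -0.29 at high stress response.

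Other immune lists had medians near 0. Antigen presentation had 6 of 19 above 0 and a median of -0.07, with log2 fold changes of -0.77 ± 0.40 for SLA-3 and -0.40 ± 0.26 for SLA-8, both class I molecules of the pig, and -0.72 ± 0.51 (SE) for PSMB8, an immunoproteasome subunit that was high in high-low 3 and, of the pigs with low stress response, in low-low 3. Acute phase genes had 13 of 17 above 0 and a median of 0.10. HAMP, hepcidin, the hormone that limits iron export, had signals from 762 to 5255 against 275 to 2081. Its log2 fold change of 1.47 ± 0.99 (SE) was 0.12 in males alone and 0.11 without the female high-low 1. C4BPA and C3, both of the complement system, had log2 fold changes of 0.16 ± 0.16 and 0.22 ± 0.22 (SE). Cytokines, chemokines and their receptors had 12 of 23 above 0 and a median of 0.05. Besides CCL21 the smallest p were those of CCL4, which attracts monocytes and lymphocytes, and CXCL14. CCL4 had signals of 1317, 1111 and 898 against 786, 559.6 and 692, which did not overlap, and a log2 fold change of 0.69 ± 0.22 (SE). CXCL14 had a log2 fold change of -0.93 ± 0.39 (SE) with overlapping groups.

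The unfolded protein response, the chaperones and sensors of the endoplasmic reticulum, had 14 of 18 above 0, beside 51% of all probe sets, and a median of 0.10. DNAJB9, HSP90B1 and PDIA3, all of protein folding, had log2 fold changes of 0.38 ± 0.25, 0.31 ± 0.18 and 0.26 ± 0.16 (SE). In all 18 genes the groups overlapped, where 7.54% of all probe sets did not. The median was 0.03 without both arrays that stood apart and -0.02 without high-high 3.

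Cholesterol synthesis had 7 of 13 above 0 and a median of 0.07 at high stress response, against 0.33 at low stress response. FDFT1, squalene synthase, had a log2 fold change of -0.44 ± 0.24 where the stress response was high and 0.41 ± 0.24 where it was low (SE), and SC5D and HSD17B7, later enzymes of the pathway, had 0.43 ± 0.24 and 0.84 ± 0.54 (SE). The signals of HSD17B7 were 2125, 3458 and 7681 against 4784, 1941 and 1054, and without both arrays that stood apart its value was -0.05. Fatty acid and triglyceride synthesis had 11 of 20 above 0 and a median of 0.01, with SCD, the stearoyl-CoA desaturase, at 0.57 ± 0.46, SREBF1, the regulator of the pathway, at 0.49 ± 0.36, and LPIN2, a phosphatidate phosphatase, at 0.26 ± 0.18 (SE). Fatty acid oxidation and ketogenesis had 11 of 24 above 0 and a median of -0.03, with BDH1 of ketone body synthesis at -0.52 ± 0.33 and the oxidation enzymes ACAA2 and HADHB at 0.31 ± 0.28 and -0.23 ± 0.23 (SE).

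Among 21 genes of cytochrome P450 xenobiotic metabolism, 10 were above 0, with a median of -0.05. CYP2C49, a pig enzyme of drug oxidation, had signals of 22462, 10275 and 7245 against 29273, 25489.8 and 25308. All 3 low-aggressiveness pigs lay within a narrow range above the others, and the log2 fold change was -1.16 ± 0.40 (SE, limma adjusted p = 0.999). It was 0.43 ± 0.40 (SE) at low stress response. CYP2A19 and CYP3A39 had log2 fold changes of 0.79 ± 0.44 and 0.64 ± 0.43 (SE), and high-low 3 was by far the lowest in both, with signals of 4115 and 7563.

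Markers of cells other than hepatocytes were counted because the samples were whole liver. In such samples fewer cells of a type and less RNA per cell cannot be told apart. Stellate cell and fibroblast markers, genes of the cells that make the matrix of the liver, had 9 of 11 measured members below 0 and a median of -0.47, against 0.14 at low stress response. Their summed signal was 14932 to 18692 in the high-aggressiveness and 14652 to 33223 in the low-aggressiveness pigs, and none was at 0. TIMP1, an inhibitor of matrix proteases, was the single member of the 11 whose groups did not overlap, where 7.54% of all probe sets did not. It had signals of 126, 181 and 193 against 408, 204 and 379, a log2 fold change of -0.88 ± 0.30 (SE). DCN, decorin, and RGS5, a pericyte gene, had log2 fold changes of -0.80 ± 0.40 and -0.78 ± 0.37 (SE), while the collagens COL1A2 and COL3A1 had 0.11 ± 0.25 and 0.10 ± 0.29 (SE). These 5 genes were taken up after their values were seen. The mean log2 deviation of the list was -0.14, -0.12 and -0.19 in the high-aggressiveness pigs and 0.58, -0.20 and 0.45 in the low-aggressiveness pigs. High-low 1 and high-low 3 were high, and high-low 2 lay below all 3 high-aggressiveness animals. The median was -0.72 without high-low 2, -0.37 without both arrays that stood apart and -0.10 in males alone.

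**Figure D4:**
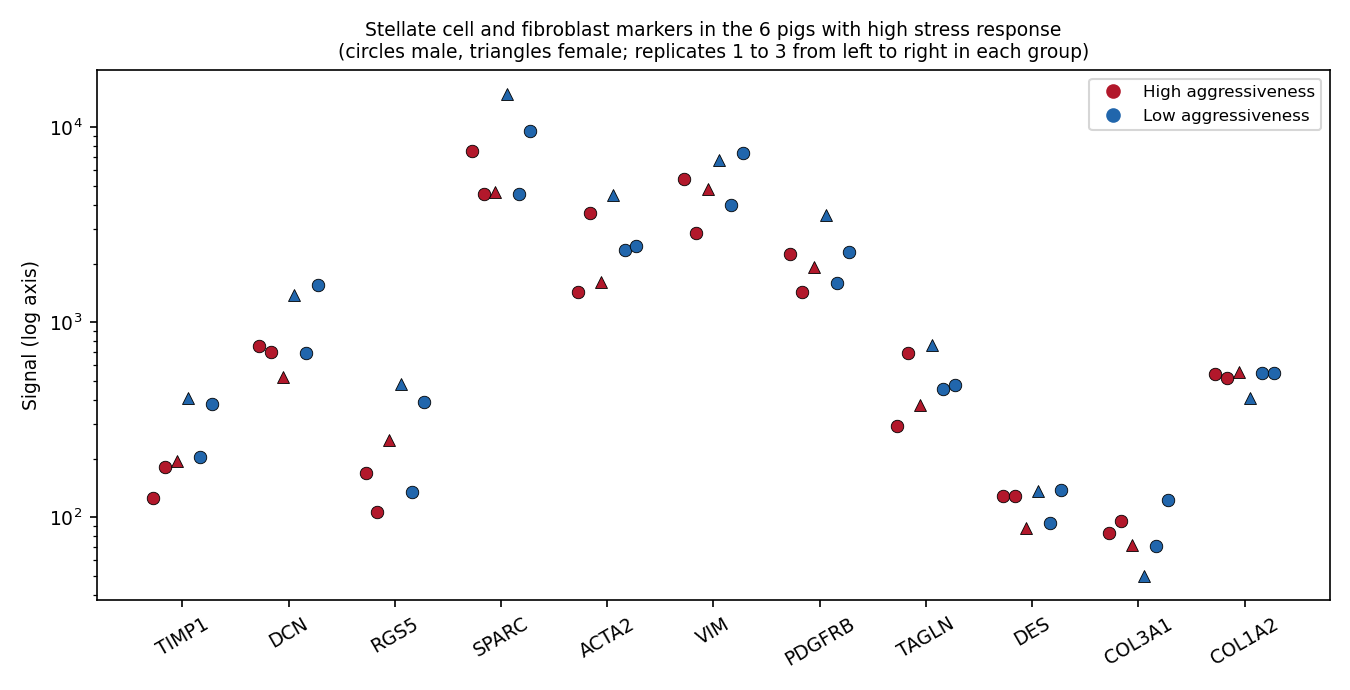
Signals (log10-scaled axis) of the 11 measured stellate cell and fibroblast markers in the 6 pigs with high stress response, red for high and blue for low aggressiveness, with circles for males and triangles for females. TIMP1 was the one marker of the 11 without overlap (7.54% of all probe sets had none), at 126 to 193 against 204 to 408. RGS5, VIM and PDGFRB were highest in high-low 1 or high-low 3.

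PRELP, CCL21 and PLAT, named above as lower, are also made by non-parenchymal cells, and the part of cell makeup in their values was not tested. Endothelial markers had 7 of 8 below 0 and a median of -0.20, which was 0.11 without both arrays that stood apart. Kupffer cell, lymphocyte and neutrophil markers had medians of 0.03, 0.06 and 0.08, and hepatocyte markers 0.08. Cell cycle and DNA replication genes had 13 of 19 below 0 and a median of -0.26, which was -0.30 without both arrays that stood apart and -0.11 in males alone. Of the 19, 3 were lower with an unadjusted p under 0.05 and 3 lower without overlap, beside 1.93% and 3.76% of all probe sets. The mean log2 deviation of the list was 0.66, 0.04 and 0.03 in high-low 1 to 3. It was -0.04, -0.19 and 0.04 in high-high 1 to 3, so high-low 1 alone was high. CDC20 had signals of 15.6, 70.7 and 31.3 against 143, 129 and 89.98, and BIRC5, UBE2C and CCNB1 were highest in high-low 1, the female of the low-aggressiveness group; these 3 were taken up after their values were seen.

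Cytosolic ribosomal proteins had 45 of 55 below 0, at a median of -0.05, and in 12 of them (21.8%) the low-aggressiveness pigs were all higher, beside 3.76% of all probe sets. No member had an unadjusted p under 0.05, the widest fold change in the list was -0.35, and the median was 0.07 without both arrays that stood apart and -0.18 with the 3' to 5' ratio of EF1A as a covariate. At low stress response the list went the other way, with 49 of 55 above 0 and a median of 0.10. A measure of RNA quality ran along with aggressiveness at high stress response and also in the pigs with low stress response. The log2 ratio of 3' to 5' probe sets of EF1A averaged 0.92 ± 0.05 in the high-aggressiveness pigs and 0.72 ± 0.03 in the others (SD, n = 3 each), with no overlap (two-sided exact permutation p = 0.1, the smallest that 3 against 3 can give, and 0.4 adjusted over 4 ratios). The EF1A ratios of low-high 1 to 3 were 0.83, 0.76 and 0.99. Those of low-low 1 to 3 were 0.73, 0.73 and 0.69, again with no overlap. At high stress response the ratio of GAPDH overlapped, at 0.88 ± 0.08 against 0.76 ± 0.05 (SD, n = 3 each, exact permutation p = 0.2), as did that of actin (exact permutation p = 0.8). With the EF1A ratio as a covariate the log2 fold change of PRKAG3 was -1.24 and that of the ZNF281 probe set -1.76, and neither passed (limma adjusted p = 1.00 for each). On the same log2 fold change scale RGS16 was then 1.74, PLAT -1.78 and SLC27A1 -2.12. Because the EF1A ratio separated the aggressiveness groups, as a covariate it shared variation with the contrast. The parts of the ratio and of aggressiveness in these values cannot be told apart.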

How the data were processed

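Each liver was hybridized to an Affymetrix porcine array of its own. The authors deposited 1 intensity per probe set, on a linear scale and computed in GCOS 1.1.1, per the submitters' processing notes; settings for summarising probes and scaling were not given in the sources used here. The mean after trimming 2% was 500.2 on every array. Signals were used as deposited, as log2(signal + 16).

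Of 24123 probe sets, 124 controls and then the lowest 33.3% by mean were left out, and 15999 were tested (mean signal at least 40.58). The array's annotation table gave 1 symbol to 10099 probe sets, several to 198 and none to 13826, and symbols were checked through RefSeq gene IDs (9989 matched). A gene was represented by its probe set with the highest mean, which gave 5810 genes.

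A model with 4 groups and sex as terms was fitted to all 12 arrays with limma 3.58.1 (R 4.3.3), leaving 7 residual degrees of freedom, so that the low stress response animals shared the estimate of spread. Contrasts were aggressiveness at high stress response, the same at low, and their difference (the interaction), each with Benjamini-Hochberg adjustment. Named were the 12 genes with the smallest p in each direction, the 5 with the largest fold change in each direction among those without overlap, 3 members of each of 13 described lists, the 6 with the smallest interaction p, and other probe sets of the first 2 sets. The 26 gene lists, 8 marker lists and the rules were chosen with earlier results of these data known. The choice of 2 arrays as standing apart was made in the same way. Control ratios were compared with exact permutation tests.

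Alternatives covered the samples in the fit, the sex term, the filter, normalization, the added constant, the variance model, array weights, males only, 3' to 5' ratios as covariates, omission of both arrays that stood apart or of each animal, and the mean over a gene's probe sets. The pipeline was tested on simulated data. Figures used matplotlib 3.10.9 in Python 3.11.15.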

Additional observations from a re-analysis of the deposited data

How the results depend on the processing

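No paired analysis was possible because the replicate numbers follow the order of the accessions and pair no animals. Against 2 probe sets past the adjusted threshold at high stress response there were 0 without both arrays that stood apart, with a constant of 64, with the EF1A or the mean 3' to 5' ratio as covariate, with the lowest 50% left out, with no filter, in males only, with no sex term, in only the 6 arrays with high stress response, and with a variance trend, robust or not. There was 1 under median centring and under quantile normalization. Leaving out 1 animal gave 0 to 2. The 108 with an unadjusted p under 0.01 became 69 with the lowest 50% left out and 211 with no filter, which test fewer and more probe sets, and 97 to 168 with 1 animal left out; the higher ones were 58 of 108, 34 of 121 with the EF1A ratio as covariate and 123 of 168 without high-low 3. For the interaction, 0 passed in the fit reported and 2 without both arrays that stood apart, 0 to 1 with 1 animal left out, and the 104 with an unadjusted p under 0.01 became 243 with no filter and 95 to 146 with 1 animal left out. PRKAG3 kept its sign in 27 of 27 settings and its call in 3 (array weights, a constant of 1, without high-low 3), and the ZNF281 probe set kept its sign in 26 of 26 and its call in 9. RGS16 passed at high stress response in 1 setting, without low-high 1 (limma adjusted p = 0.0283). All 24 genes with the smallest p kept their sign throughout, which their choice by this same comparison favours. Signs of other genes turned with the EF1A ratio as covariate for ACAA2 (-0.13), C3 (-0.25), CRY2 (0.15), HAMP (-0.36) and SREBF1 (-0.15), without both arrays that stood apart for HSD17B7 (-0.047), without high-low 1 for C3 (-0.059 to 0.39 over the animals left out), without high-low 3 for KLF4 (-0.63 to 0.046) and without high-high 2 for SCD (-0.054 to 0.95). The cause was not tested for any of these, and the EF1A ratio separated the aggressiveness groups, so it shared variation with the contrast. Of 2010 values over 73 results of named genes, 1956 kept their direction and side of the threshold. Apart from PRKAG3 and the ZNF281 probe set none of these results had passed, so keeping the side was close to given and is no sign of robustness. The dim groups of PRKAG3, SART1, RGS16, PROM1, MYL4, BSCL2 and CLEC18C lay near the lower end of the signals, where the added constant sets the size of a fold change.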

Other observations

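The insulin-like growth factor axis, through which the liver supplies growth hormone's main circulating mediator, was not described above. It was taken up after its values were seen, and 0 of its 15 measured genes passed (limma), 0 had an unadjusted p under 0.05, and 8 were above 0. Of all probe sets 0.0125%, 3.63% and 51% did so. Without overlap 2 of the 15 were higher and 2 lower, beside 3.78% and 3.76% of all probe sets. IGF1, the growth factor itself, had signals of 775, 725 and 978 in high-high 1 to 3 against 466, 619.9 and 295 in high-low 1 to 3. The groups did not overlap, and the log2 fold change was 0.87 ± 0.53 (SE). At low stress response it was -0.51 ± 0.53 (SE). IGFBP1, a binding protein that limits its action, had -0.42 ± 0.40 at high and 1.099 ± 0.40 at low stress response, an interaction of -1.52 ± 0.57 (SE, limma adjusted p = 0.999). In IGFBP1 high-low 3, an animal whose array stood apart, was by far the highest of the 6, at 12062.

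Erythroid and blood markers, which reflect blood left in the tissue as well as cells made there, had all 4 measured members above 0 at high stress response, with a median of 0.37 against -0.37 at low stress response. High-high 1 alone was high, with a mean log2 deviation of 0.76, and the others of its group had -0.14 and -0.02. With the EF1A ratio as a covariate the median was -0.57.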
